A study of Mus musculus with 16 samples.

Results

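Sucla2, Suclg1, Suclg2, Sdha, Sdhb, Sdhc, Sdhd, Fh1 and Mdh2 encode the enzymes that take the tricarboxylic acid (TCA) cycle from succinyl-CoA to oxaloacetate. These 9 genes were chosen by their symbols, and each array probe was tied to a gene through its RefSeq accession. All 9 had at least 1 probe, among 22911 genes with a named probe in all. Total RNA from brown adipose tissue (BAT) and gonadal white adipose tissue (gWAT) of male C57BL/6NCrSlc mice on normal chow was hybridized to Agilent 1-colour arrays. There were 4 arrays for each depot and genotype, 16 in all. Adipo-Pgam1 KO mice carried floxed alleles of Pgam1, a glycolytic phosphoglycerate mutase, and an Adipoq-Cre transgene, in which the adiponectin promoter drives Cre recombinase in adipocytes. Littermate controls carried the floxed Pgam1 alleles without Cre, so both genotypes share the floxed locus, and other cells of the tissue keep the gene. The mice were 16 weeks of age, except those of replicate 4 of the KO groups in both depots, which were 14 weeks of age. The question was how genotype and depot changed the transcripts of this stretch of the cycle, and whether the alternative beta subunits Sucla2 and Suclg2 changed alike.

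Succinyl-CoA synthetase releases coenzyme A from succinyl-CoA and keeps the energy of the bond as a nucleoside triphosphate. Its alpha subunit, Suclg1, pairs either with Sucla2, which makes the enzyme ADP-forming, or with Suclg2, which makes it GDP-forming. Succinate dehydrogenase is at once a TCA enzyme and complex II of the respiratory chain: Sdha carries the flavin and the succinate site, Sdhb the iron-sulfur clusters, and Sdhc and Sdhd anchor the complex in the inner membrane and bind ubiquinone. Fh1 hydrates fumarate to malate, and Mdh2 oxidizes malate to oxaloacetate with NAD+. Brown adipocytes are packed with mitochondria, and succinate oxidation is known as a fuel for their respiration.

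In GRCm38.p6 (RefSeq), Sucla2 lies at chr14:73552786-73596144, Suclg1 at chr6:73248505-73276907 and Suclg2 at chr6:95473009-95718858. The complex II genes lie at chr13:74322255-74350240 (Sdha), chr4:140961271-140979198 (Sdhb), chr1:171129157-171150640 (Sdhc) and chr9:50596340-50603849 (Sdhd). Fh1 lies at chr1:175601378-175625635 and Mdh2 at chr5:135778649-135790386.

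Because the members moved together between groups, their promoters were read for motifs of factors known for nuclear genes of mitochondrial proteins. RefSeq windows from 250 bases before to 50 bases after the gene start were held for 8 of the 9 members, all but Sdhc. The NRF1 motif, read on either strand as GCGCA, any 1 base and GCGC, was found in 3 of these 8 windows, against 4.6% of 32851 windows. Sdha held it 3 times, Sdhd once and Sucla2 once. The ERR motif TCAAGGTCA was found in 1 member window, that of Sdhd, against 0.423% of all windows. The GABP motif CCGGAAGT was in 0 of 8, against 3.89%. The 120 bases before the start are shown for the 3 genes with an NRF1 match and for Suclg2, the other beta subunit, with matches in capitals. They come from chr13:74350241-74350360 (Sdha, minus strand), chr9:50603850-50603969 (Sdhd, minus strand), chr14:73552666-73552785 (Sucla2, plus strand) and chr6:95718847-95718966 (Suclg2, minus strand).
Sdha: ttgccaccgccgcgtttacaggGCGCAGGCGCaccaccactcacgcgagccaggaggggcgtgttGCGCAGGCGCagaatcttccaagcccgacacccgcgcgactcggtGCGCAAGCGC
Sdhd: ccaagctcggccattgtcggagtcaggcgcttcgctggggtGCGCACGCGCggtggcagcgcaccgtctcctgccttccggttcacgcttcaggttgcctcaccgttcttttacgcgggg
Sucla2: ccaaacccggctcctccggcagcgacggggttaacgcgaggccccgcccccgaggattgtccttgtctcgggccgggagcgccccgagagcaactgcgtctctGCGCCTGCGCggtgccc
Suclg2: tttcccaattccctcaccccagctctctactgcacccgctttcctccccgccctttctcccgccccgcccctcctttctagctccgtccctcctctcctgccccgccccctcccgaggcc
Counted from the start, the Sdha matches lie at -98 to -89, -55 to -46 and -10 to -1, the Sdhd match at -79 to -70, and the Sucla2 match, on the opposite strand, at -17 to -8. The Suclg2 window holds none of the 3 motifs. Each motif was read on both strands, and no matches overlapped. The Suclg2 window is set on a transcript that begins inside the outer bound of the gene. These are matches of letters and say nothing about binding.

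Expression is given as the log2 of the background-subtracted probe intensity over the 75th percentile of its array, so 0 is that percentile and 1 unit is a doubling. The percentile was 401 to 451 intensity units in BAT controls and 650 to 916 in KO mice in that depot. The gWAT values were 570 to 855 in controls and 657 to 831 in the arrays labelled Adipo-Pgam1 KO. The brightest probe stood for a gene, and all 9 members were well above background on all 16 arrays. Levels of different genes come from different probes and were not set against each other. The samples of a group are described as independent, but the labels name no animals, so p-values measure the spread between these samples.

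Ucp1, the uncoupling protein that defines brown and beige cells, had a median of 9.92 in BAT controls. All 8 markers of adipocytes of any depot were detected on all 16 arrays, but these markers do not tell the depots apart. The targeted gene was read first. In BAT, Pgam1 was 7.94, 7.93, 8.07 and 7.82 in controls and 6.20, 6.13, 6.03 and 6.43 in Adipo-Pgam1 KO mice. Its gWAT values were 5.07, 5.15, 5.67 and 5.56 in controls and 6.50, 6.42, 6.38 and 5.95 in the arrays labelled Adipo-Pgam1 KO. The gene was thus lower in BAT of KO mice and higher in the gWAT arrays labelled KO, with no overlap in either depot. A second Pgam1 probe had means of 6.55 in controls and 4.90 in KO mice in BAT, and of 3.93 in controls and 4.95 in the arrays labelled KO in gWAT. Where these probes lie against the floxed exons was not tested, and every direction given for gWAT rests on the label.

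In BAT, all 9 enzymes fell in Adipo-Pgam1 KO mice, from 0.502 of the control level for Suclg2 to 0.267 for Sucla2. These sizes depend on the scaling: the median change of the 9 was -0.56 with spike-in scaling, where Suclg2 changed by -0.44 and Sucla2 by -1.35, and -1.70 with scaling on Actb and Rplp0, and all 9 passed in each. Sucla2 was 6.18, 6.22, 6.31 and 6.25 in controls and 4.54, 4.20, 4.01 and 4.59 in Adipo-Pgam1 KO mice. The lowest control lay well above the highest KO array, and the change was -1.91 (limma, SE 0.14, adjusted p = 1.61e-05). Suclg2 was 2.95, 2.99, 2.97 and 3.10 in controls and 2.28, 1.85, 1.87 and 2.03 in KO mice. This GDP-forming subunit changed by -0.99 (limma, SE 0.12, adjusted p = 1.22e-04), again with no overlap. Their shared partner Suclg1 was 8.35, 8.28, 8.44 and 8.25 in controls and 7.13, 6.75, 6.68 and 7.38 in KO mice. Its change of -1.34 (limma, SE 0.16, adjusted p = 1.44e-04) lay between those of the alternative subunits.

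All 4 complex II genes fell in BAT, with the largest change in Sdhc. Sdhc, which helps hold the ubiquinone site, was 7.13, 7.09, 7.17 and 6.94 in controls and 5.66, 5.56, 5.45 and 5.84 in KO mice, a change of -1.45 (limma, SE 0.11, adjusted p = 1.84e-05). The other anchor, Sdhd, was 8.14, 8.25, 8.25 and 8.20 in controls and 7.03, 7.04, 7.00 and 7.40 in KO mice. Its change was -1.09 (limma, SE 0.11, adjusted p = 6.61e-05), with 3 KO arrays close together and replicate 4 above them. The flavoprotein gene Sdha was 7.86, 7.92, 7.99 and 8.02 in controls and 6.90, 6.73, 6.64 and 7.06 in KO mice, and changed by -1.11 (limma, SE 0.11, adjusted p = 6.08e-05). Sdhb, the iron-sulfur subunit, was 9.27, 9.20, 9.36 and 9.22 in controls and 8.11, 8.05, 7.97 and 8.53 in KO mice, and changed by -1.10 (limma, SE 0.13, adjusted p = 1.51e-04). None of the 4 complex II genes overlapped between genotypes. Of the 4, Sdhb depended most on the normalization: its change was -0.39 with quantile normalization and -0.29 with normexp background correction before it, where Sdha changed by -0.73 and -0.67 and Sdhd by -0.65 and -0.63. Second probes moved further: -1.37 for Sdha and -1.29 for Sdhb.

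Downstream, Fh1 was 7.44, 7.49, 7.77 and 7.65 in BAT controls and 6.30, 6.04, 5.97 and 6.58 in KO mice, a change of -1.37 (limma, SE 0.15, adjusted p = 1.00e-04). Mdh2 was 9.70, 9.59, 9.84 and 9.56 in controls and 8.71, 8.52, 8.41 and 8.96 in KO mice, a change of -1.02 (limma, SE 0.14, adjusted p = 2.65e-04). Neither gene overlapped between the genotypes. The median change of the 9 genes was -1.11, against -0.08 over all 14280 genes tested. All 9 were past an adjusted p of 0.05 in the lower direction, as were 34% of all genes tested, and all 9 had groups that did not overlap, as had 31.9% of all genes in that direction. Before scaling, the intensities of Suclg2, Sdha, Sdhb and Mdh2 overlapped between genotypes, and those of the other members did not. Under quantile normalization and under normexp background correction with it, 8 passed, and Mdh2 was then -0.16 (adjusted p = 0.286) and -0.29 (adjusted p = 0.0819). On slide 2, which held all 4 KO arrays and 1 control, the 9 genes changed by -1.91 to -0.91. These arrays are part of the comparison above, and all genes were not read in this way.

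**Figure D1:**
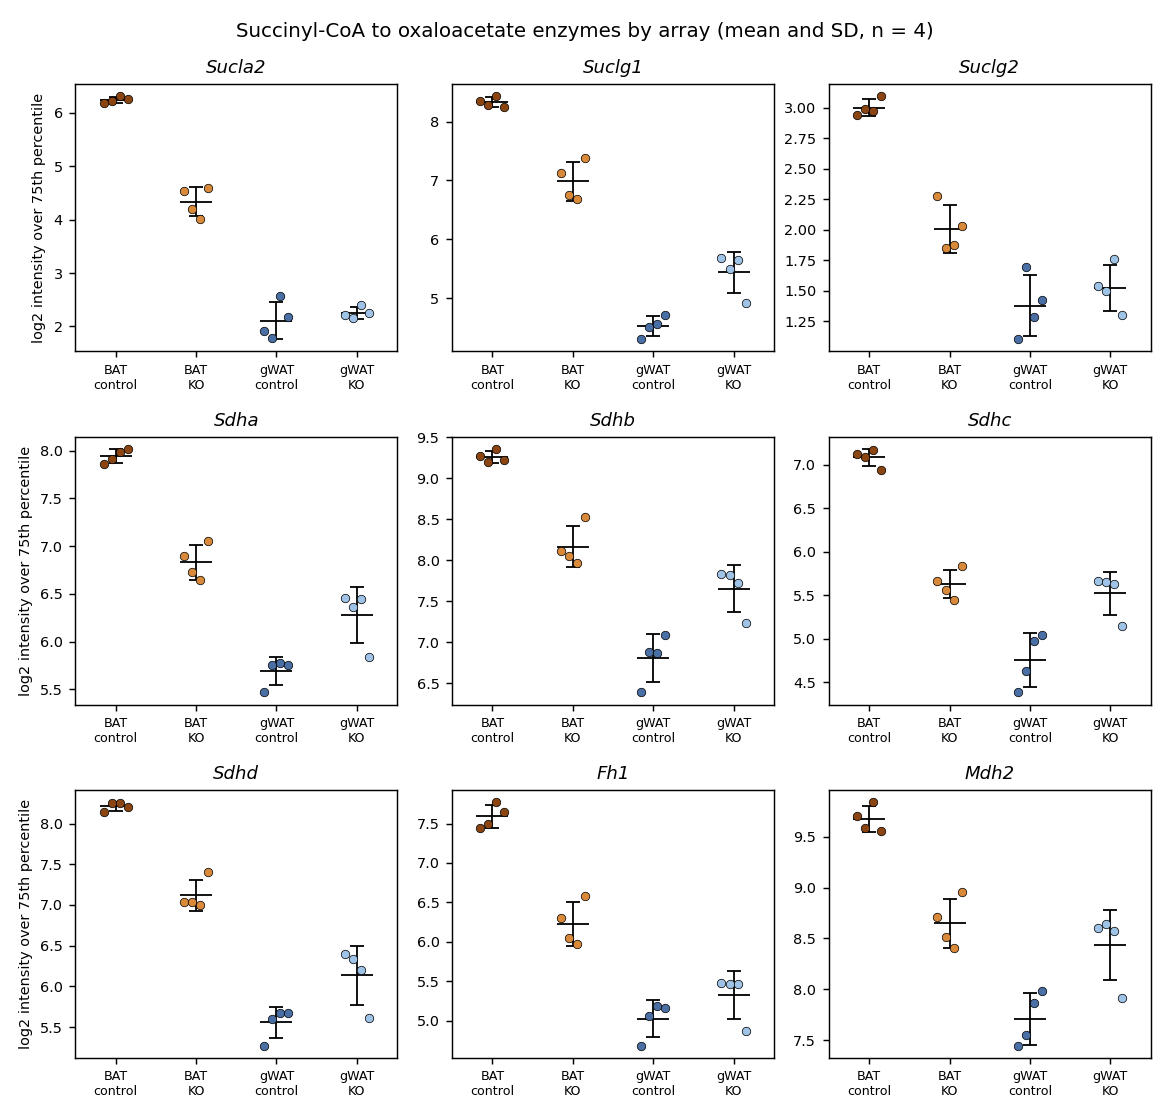
Log2 probe intensity over the 75th percentile of the array (vertical axis, own scale per gene) for the 9 genes in the 4 groups (horizontal axis), with 1 point per array and bars for the mean and SD (n = 4). The order of the means is BAT control, BAT KO, gWAT KO, gWAT control in every panel, and BAT control arrays overlap with no other group.

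Other cell markers moved with these changes in BAT, where 34% of all genes tested were past the threshold lower and 27.5% higher. The summed level of 8 brown adipocyte markers, on the linear scale over the 75th percentile, was 3263 to 3483 in controls and 1165 to 1877 in KO mice, and 5 of the 8 genes fell. The sum of 8 markers of adipocytes of any depot, all detected on every array, was 2606 to 2885 in controls and 910 to 1254 in KO mice, and 7 fell. In contrast, 10 macrophage markers summed to 28.5 to 41.3 in controls and 97.7 to 146 in KO mice, and 8 rose. Of 7 fibroblast and preadipocyte markers 6 rose, with sums of 128 to 174 in controls and 234 to 336 in KO mice. The sum of 11 skeletal muscle markers was 121 on KO replicate 1 and 23.3 on KO replicate 3, and at most 4.56 on the other BAT arrays. Without KO replicate 1 all 9 enzymes still passed, with a median of -1.13. The part of cell makeup in the result was not tested, and in bulk tissue fewer cells of a type and less RNA per cell cannot be told apart.

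In gWAT, the arrays labelled Adipo-Pgam1 KO had a higher mean of all 9 genes, and 5 rose: Suclg1, Sdha, Sdhb, Sdhc and Mdh2. Suclg1 was 4.30, 4.52, 4.56 and 4.72 in controls and 5.68, 5.50, 5.65 and 4.93 in the arrays labelled KO, a change of 0.91 (limma, SE 0.19, adjusted p = 0.0159) and 1.88 times the control level. Of its partners, Sucla2 was 1.92, 1.78, 2.57 and 2.18 in controls and 2.22, 2.15, 2.40 and 2.24 in the arrays labelled KO. The KO-labelled arrays lay inside the control range, and the difference was 0.14 (limma, SE 0.18, adjusted p = 0.607). Suclg2 was 1.10, 1.69, 1.29 and 1.42 in controls and 1.54, 1.50, 1.76 and 1.30 in the arrays labelled KO, a difference of 0.15 (limma, SE 0.16, adjusted p = 0.554). Its groups overlapped too, and its other probes gave -0.06 and -0.30. With normexp Sucla2 was -0.04, so neither beta subunit had a settled direction in gWAT.

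Of complex II in gWAT, Sdhb was 6.39, 6.88, 6.87 and 7.09 in controls and 7.83, 7.82, 7.72 and 7.23 in the arrays labelled KO, a change of 0.85 (limma, SE 0.20, adjusted p = 0.0227). Sdhc was 4.38, 4.63, 4.97 and 5.05 in controls and 5.66, 5.65, 5.63 and 5.15 in the arrays labelled KO, a change of 0.76 (limma, SE 0.19, adjusted p = 0.0293). Sdha was 5.47, 5.76, 5.78 and 5.76 in controls and 6.46, 6.36, 6.44 and 5.84 in the arrays labelled KO, a change of 0.59 (limma, SE 0.17, adjusted p = 0.0437). In all 3 genes the groups did not overlap, but replicate 4 of the arrays labelled KO lay only just above the highest control. Sdhd was 5.27, 5.60, 5.68 and 5.68 in controls and 6.40, 6.34, 6.20 and 5.61 in the arrays labelled KO. Replicate 4 lay among the controls, and the difference of 0.58 (limma, SE 0.20, adjusted p = 0.0730) did not pass. Second probes gave 0.91 for Sdha and 1.11 for Sdhb.

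Fh1 was 4.68, 5.06, 5.19 and 5.17 in gWAT controls and 5.48, 5.47, 5.47 and 4.87 in the arrays labelled KO, a difference of 0.30 (limma, SE 0.19, adjusted p = 0.294). Mdh2 was 7.45, 7.55, 7.86 and 7.98 in controls and 8.60, 8.64, 8.57 and 7.92 in the arrays labelled KO, a change of 0.72 (limma, SE 0.20, adjusted p = 0.0410). Replicate 4 overlapped with the controls in both genes. The median of the 9 genes was 0.59, against 0.05 over the 14149 genes tested. Past the threshold in the higher direction were 5 of 9, against 9.99% of all genes tested, and 4 of 9 did not overlap between groups, against 13.3% in that direction.

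The calls in gWAT rested on single arrays and on the slide. Leaving out KO-labelled replicate 3 left 0 enzymes past the threshold, leaving out control replicate 2 or KO-labelled replicate 1 or 2 left 1, control replicate 1 left 2, control replicate 3 left 3 and control replicate 4 left 4, whereas 6 passed without KO-labelled replicate 4. With the slide as a fixed block 0 passed. On slide 3, which held all 4 arrays labelled KO and 1 control, the 9 differences were 0.08 to 0.72. Control replicate 1 was the lowest of its group in 8 of the 9 genes, and it alone of the gWAT arrays had a high sum of 8 epididymis and testis markers, 14.5 against 0.225 to 1.60 on the others. Without it, the median of the 9 genes was 0.51. The summed brown adipocyte markers were 12.6 to 23.4 in gWAT controls and 76.0 to 198 in the arrays labelled KO, and 4 of 5 tested genes rose. Ucp1 was not well above background on any gWAT control array. The markers of adipocytes of any depot summed to 2328 to 3671 in controls and 1997 to 2684 in the arrays labelled KO, and 2 of 8 fell. The macrophage markers summed to 72.7 to 102 and 76.8 to 228, and 2 of 10 rose. Of all genes tested in gWAT, 9.99% were past the threshold higher and 7.85% lower. The skeletal muscle markers summed to 4.02 to 25.5 in controls and 30.5 to 58.7 in the arrays labelled KO, without overlap. Of these 11 markers, 7 to 10 were well above background on each control array and 5 to 8 on each array labelled KO. Of the 7 tested, 0 passed. The part of these markers in the result was not tested.

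**Figure D2:**
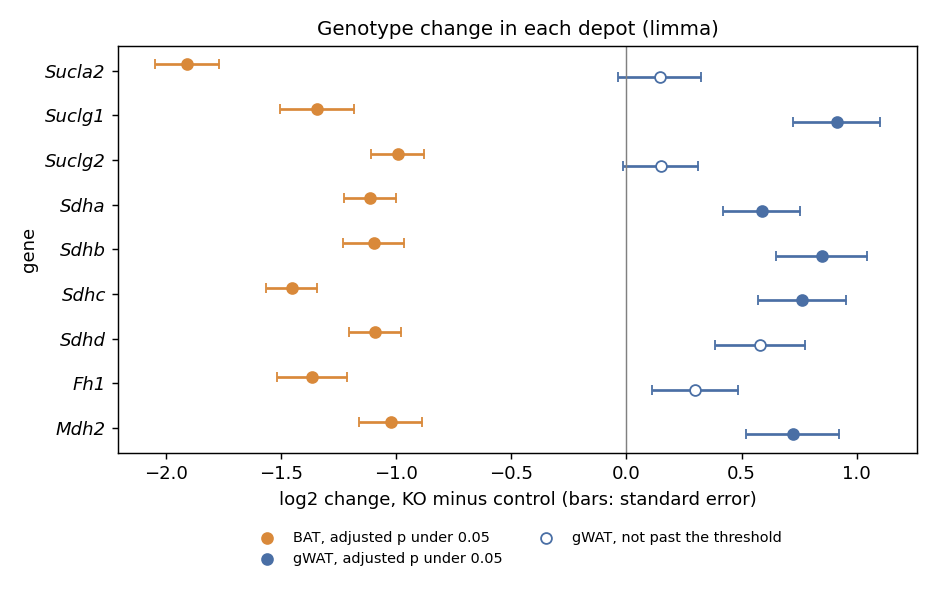
Log2 change, KO minus control, from limma (horizontal axis) for the 9 genes (vertical axis), with BAT in orange and gWAT in blue, bars for the standard error and filled points for an adjusted p under 0.05. All BAT points lie between -1.91 and -0.99, all gWAT points lie between 0.14 and 0.91, and the open points are Sucla2, Suclg2, Sdhd and Fh1 in gWAT.

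The difference between the depots was tested itself, as the interaction of genotype and depot over all 16 arrays. The change was more positive in gWAT for all 9 genes, and all 9 passed in that direction, against 27.4% of 14820 genes tested. The interaction was 2.25 for Suclg1 (limma, SE 0.25, adjusted p = 2.01e-05), 2.05 for Sucla2 (SE 0.23, adjusted p = 1.97e-05) and 1.14 for Suclg2 (SE 0.20, adjusted p = 3.35e-04). Among the complex II genes it was 2.22 for Sdhc (limma, SE 0.22, adjusted p = 9.20e-06), 1.94 for Sdhb, 1.70 for Sdha and 1.67 for Sdhd. Mdh2 had 1.75 and Fh1 1.66, and the median of the 9 was 1.75 against 0.07 over all genes. With quantile normalization the median was 1.04, with 0.70 for Mdh2, and with normexp it was 0.97, with 0.79 for Sdhb, and all 9 still passed. For Sucla2 and Suclg2 nearly all of this came from BAT, since their gWAT differences were 0.14 and 0.15.

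Replicate 4 of both KO groups, from the 14-week-old mice, lay closest to its controls. It was the highest of the 4 BAT KO arrays in 8 of 9 genes. Of the 4 gWAT arrays labelled KO it was the lowest in 8 of 9. Such ranks were not limited to the younger mice. BAT KO replicate 3 and gWAT control replicate 1 were each the lowest of their group in 8 of 9 genes. BAT control replicate 3 was the highest of its group in 7 of 9. The replicate 4 KO arrays also had the highest summed brown adipocyte markers in BAT, 1877, and the lowest in gWAT, 76.0, within their groups. Markers of other cells stood apart there too: on the gWAT array, macrophage markers summed to 228, against 76.8 to 129 on the other 3 arrays labelled KO, and endothelial markers to 59.9 against 25.3 to 35.5. On the BAT array, the macrophage sum was the lowest of the KO arrays, 97.7, and that of adipocytes of any depot the highest, 1254. Without both arrays, all 9 interactions still passed, with a median of 2.02. Whether age or cell makeup had a part in this was not tested.

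The depots were also compared in the controls alone, which are the same arrays as the controls of the genotype comparisons. All 9 genes were higher in BAT, as were 35.4% of 14304 genes tested, and none overlapped between depots, as in 33.6% of all genes in that direction. The median difference was 2.46, against 0.10 over all genes. Sucla2 was 17.5 times as high in BAT as in gWAT (log2 difference 4.13, limma, SE 0.17, adjusted p = 7.95e-07), and Suclg1 13.9 times (3.80, SE 0.12, adjusted p = 2.24e-07). Suclg2 was 3.09 times as high (log2 difference 1.63, limma, SE 0.14, adjusted p = 1.89e-05). The complex II genes differed by 2.26 (Sdha) to 2.65 (Sdhd), Fh1 by 2.56 and Mdh2 by 1.96, or 0.87 with quantile normalization. On slide 2, with 1 BAT control and 3 gWAT controls, the 9 differences were 1.74 to 4.16, with a median of 2.51.

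The 4 groups took the same order in all 9 genes: BAT control, BAT KO, gWAT labelled KO, gWAT control. The BAT groups overlapped in 0 genes, the KO groups of the depots in 2, Sdhc and Mdh2, and the gWAT groups in 5, Sucla2, Suclg2, Sdhd, Fh1 and Mdh2. Between the depots of the KO groups the means differed by 2.08 for Sucla2 and 1.55 for Suclg1, but by 0.21 for Mdh2 and 0.11 for Sdhc. Sdhc and Mdh2 were thus nearly level in the depots of the KO groups, whereas Sucla2 and Suclg1 differed most. Suclg2, the remaining succinyl-CoA synthetase gene, differed by only 0.48, and the other members by 0.51 (Sdhb) to 0.98 (Sdhd). The difference between the KO groups of the depots was not tested.

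The ADP- and GDP-forming subunits were then set against each other within each array, where a scaling factor of the whole array cancels. The log2 of Sucla2 minus that of Suclg2 has no meaning as a level, because the probes differ, but its change between groups does. It was 3.24, 3.23, 3.34 and 3.15 in BAT controls and 2.26, 2.35, 2.14 and 2.56 in BAT of KO mice. No arrays overlapped, and the change was -0.91 (SE 0.10, two-sided exact permutation test, p = 0.0286), which puts Sucla2 over Suclg2 at 0.531 of its control value. The size depended on the normalization: the change was -0.71 with quantile normalization and -0.70 with normexp background correction before it. In gWAT the log2 of Sucla2 minus that of Suclg2 was 0.82, 0.08, 1.28 and 0.76 in controls and 0.68, 0.66, 0.64 and 0.94 in the arrays labelled KO. The arrays labelled KO lay inside the wide control range, with a difference of -0.004 (SE 0.26, exact permutation test, p = 1). Between the depots of the controls it differed by 2.51 (SE 0.25, exact permutation test, p = 0.0286), a 5.68-fold higher value in BAT with no overlap. Whether the change differed between the depots was not tested.

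Suclg1 was set against each beta subunit in the same way, a comparison chosen after seeing the data. In BAT, Suclg1 over Sucla2 differed by 0.56 (SE 0.063, exact permutation test, p = 0.0286), and Suclg1 over Suclg2 differed by -0.35 (SE 0.14, exact permutation test, p = 0.0857). In the gWAT arrays labelled KO, Suclg1 over Suclg2 differed by 0.76 (SE 0.16, exact permutation test, p = 0.0286), and Suclg1 over Sucla2 differed by 0.77 (SE 0.23, exact permutation test, p = 0.0571). Between the depots of the controls, Suclg1 over Suclg2 was 2.17 higher in BAT (SE 0.13, exact permutation test, p = 0.0286), while Suclg1 over Sucla2 differed by -0.33 (exact permutation test, p = 0.143). In these 9 tests of 3 pairs the smallest p that 4 arrays against 4 allow is 0.0286, which becomes 0.0514 after Benjamini-Hochberg adjustment over the 9, so none passed 0.05. Without gWAT control replicate 2, Suclg1 over Suclg2 changed by 0.65 (exact permutation test, p = 0.0571).

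**Figure D3:**
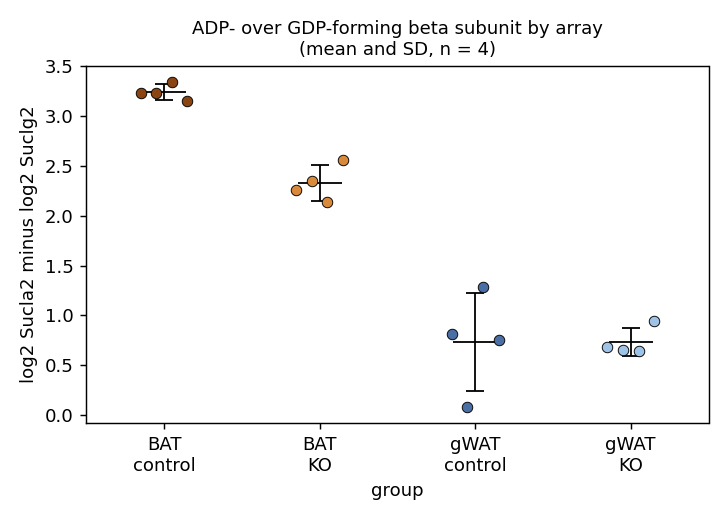
Log2 intensity of Sucla2 minus that of Suclg2 on each array (vertical axis) in the 4 groups (horizontal axis), with 1 point per array and bars for the mean and SD (n = 4). BAT controls lie at 3.15 to 3.34 and BAT KO arrays at 2.14 to 2.56, while gWAT controls spread from 0.08 to 1.28 around the KO-labelled arrays at 0.64 to 0.94.

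Over the 16 arrays, which fall into 4 groups, the members correlated with each other with Pearson r from 0.898 (Sucla2 with Mdh2) to 0.993 (Suclg1 with Sdhd), a description in which the group differences are shared. Among 12351 genes detected on all arrays, those most like Sucla2 were Itpr1, a calcium release channel of the endoplasmic reticulum (r = 0.997), the kinase gene Sgk3 (0.992), Mrps36 (0.992) and Acadl, an acyl-CoA dehydrogenase (0.990). Those most like Suclg2 were Amacr, a racemase of branched acyl-CoAs (r = 0.990), Kyat1, a kynurenine aminotransferase (0.981), Eci1, an enoyl-CoA isomerase (0.980) and Nampt, which makes the NAD+ precursor NMN (0.979).

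The TCA enzymes before this stretch, which bring citrate to succinyl-CoA, also fell in BAT and were higher in the gWAT arrays labelled KO. All 9 fell in BAT, with a median of -1.14, including the NAD-dependent isocitrate dehydrogenase subunits Idh3b (-1.67, limma, SE 0.17, adjusted p = 5.93e-05) and Idh3g (-1.61, SE 0.13, adjusted p = 2.63e-05). In gWAT 5 of 9 rose in the arrays labelled KO, with a median of 0.79, led by Idh3b (1.29, limma, SE 0.20, adjusted p = 0.00630) and Idh3a (1.09, SE 0.21, adjusted p = 0.0130). All 9 passed the interaction, with a median of 1.84, and all 9 were higher in BAT than in gWAT of controls, with a median of 2.90. The complex II assembly factors, which insert flavin and iron-sulfur clusters, fell in BAT in 4 of 4, with a median of -1.01, most of all Sdhaf2 (-1.20, limma, SE 0.14, adjusted p = 1.34e-04) and Sdhaf4 (-1.07, SE 0.14, adjusted p = 2.13e-04). In gWAT 0 of 4 passed, with differences of 0.16 to 0.61. All 4 passed the interaction, with a median of 1.41.

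For these and the following lists, 34% of all genes tested were past the threshold lower and 27.5% higher in BAT, and 9.99% higher and 7.85% lower in gWAT. In the interaction, 27.4% of all genes tested passed in the direction more positive in gWAT. Between the control depots, 35.4% were higher in BAT. Genes that feed or use succinyl-CoA were mostly lower in BAT of KO mice: 8 of 10 fell, with a median of -1.36. Sugct, which moves coenzyme A from succinyl-CoA to glutarate, fell most of the list, by 3.92 on the log2 scale (limma, SE 0.21, adjusted p = 5.33e-06). Its level was 1.10 to 1.36 in BAT controls and -3.17 to -2.18 in KO mice, far from overlapping. Pcca, the alpha subunit of propionyl-CoA carboxylase, changed by -1.99 (limma, SE 0.17, adjusted p = 2.65e-05). The first enzymes of heme synthesis, Alas1 and Alas2, which consume succinyl-CoA, were -0.38 (adjusted p = 0.113) and -0.49 (adjusted p = 0.405). In gWAT 2 fell, Sugct (-0.92, limma, SE 0.26, adjusted p = 0.0423) and Mcee (-0.59, SE 0.16, adjusted p = 0.0394), and 1 rose, Mmab (1.06, SE 0.27, adjusted p = 0.0292), with a median of -0.11. All 3 were lost in several of the alternative settings. In the interaction 8 of 10 passed, all more positive in gWAT.

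Succinate itself can be carried, sensed or made from 4-aminobutyrate, and 5 of 6 such genes were tested. In BAT, Aldh5a1, which makes succinate from succinic semialdehyde, changed by -1.43 (limma, SE 0.16, adjusted p = 1.14e-04), and the oxoglutarate carrier Slc25a11 by -1.04 (SE 0.11, adjusted p = 9.34e-05). The plasma membrane dicarboxylate transporter Slc13a3 rose by 1.49 (limma, SE 0.23, adjusted p = 5.58e-04) and the mitochondrial dicarboxylate carrier Slc25a10 by 0.63 (SE 0.16, adjusted p = 0.00918). Of the 5 genes tested, 2 thus rose and 2 fell in BAT, beside 27.5% and 34% of all genes tested, and 0 passed in gWAT. The succinate receptor Sucnr1 was lower in BAT than in gWAT of controls by 5.21 (log2 difference -5.21, limma, SE 0.19, adjusted p = 4.14e-07), and Slc25a10 by 3.81 (log2 difference -3.81, SE 0.30, adjusted p = 1.21e-05), opposite in direction to the 9 members. Sucnr1 was 0.25 (adjusted p = 0.403) between genotypes in BAT and -0.62 (adjusted p = 0.100) in gWAT.

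Fumarate that enters from the purine nucleotide cycle, the urea cycle enzymes or tyrosine breakdown was read through 6 genes. In BAT, Fah, the fumarylacetoacetase, changed by -1.09 (limma, SE 0.14, adjusted p = 1.96e-04) and Ass1, the argininosuccinate synthase, rose by 1.01 (SE 0.34, adjusted p = 0.0292). The other 4 did not pass, and the median was -0.07, close to that of all genes. In gWAT, 2 rose in the arrays labelled KO, both adenylosuccinate synthases: Adssl1, the muscle type, by 2.01 (limma, SE 0.32, adjusted p = 0.00666) and Adss by 0.42 (SE 0.12, adjusted p = 0.0394), the latter lost in several alternative settings.

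Handling of malate and oxaloacetate beyond the cycle did not move in 1 direction in BAT. Of 11 genes 6 rose and 4 fell, with a median of 0.33. The aspartate-glutamate carrier Slc25a12 rose by 2.57 (limma, SE 0.19, adjusted p = 1.83e-05) and the mitochondrial phosphoenolpyruvate carboxykinase Pck2 by 2.40 (SE 0.14, adjusted p = 7.26e-06). In contrast, the cytosolic carboxykinase Pck1 changed by -2.66 (limma, SE 0.19, adjusted p = 1.51e-05) and the mitochondrial malic enzyme Me3 by -1.68 (SE 0.17, adjusted p = 6.54e-05). The 2 carboxykinases, which make phosphoenolpyruvate from oxaloacetate in different compartments, thus moved in opposite directions. In gWAT 6 of 11 rose and 0 fell, with a median of 0.71, led by the cytosolic malic enzyme Me1 (1.84, limma, SE 0.36, adjusted p = 0.0133) and the transaminase Got1 (1.65, SE 0.45, adjusted p = 0.0372). Mdh1, the cytosolic counterpart of Mdh2, changed by -0.65 in BAT (limma, adjusted p = 0.0114) and was 0.06 in gWAT (adjusted p = 0.845).

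The mitochondrial nucleoside diphosphate kinases exchange phosphate between GTP and ATP pools. In BAT, 2 of the 4 genes listed fell and 2 rose, beside 34% and 27.5% of all genes tested. Nme3 changed by -1.31 (limma, SE 0.12, adjusted p = 4.17e-05) and the GTP-AMP phosphotransferase Ak3 by -1.17 (SE 0.11, adjusted p = 5.17e-05), while Nme6 rose by 0.71 (SE 0.16, adjusted p = 0.00417) and Nme4 by 0.69 (SE 0.20, adjusted p = 0.0143). In gWAT 0 of 4 passed. Of 13 factors of mitochondrial biogenesis 7 fell and 2 rose in BAT, with a median of -0.59. The coactivator Ppargc1b changed by -1.94 (limma, SE 0.22, adjusted p = 1.19e-04) and Tfb2m, a mitochondrial transcription factor, by -1.64 (SE 0.16, adjusted p = 4.57e-05). Pprc1, a related coactivator, rose by 1.50 (limma, SE 0.23, adjusted p = 5.08e-04) and Nrf1, whose motif was searched, by 0.71 (SE 0.14, adjusted p = 0.00237). In gWAT 0 of 12 tested factors passed, with a median of 0.002.

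Between the depots of the controls, the neighbouring genes moved in both directions, and of all genes tested 35.4% were higher and 29.3% lower in BAT. The complex II assembly factors were higher in BAT in 4 of 4, with a median of 1.48, and 7 of the 10 succinyl-CoA genes were higher, led by Mmaa (2.28, limma, SE 0.17, adjusted p = 9.51e-06) and Pcca (2.07, SE 0.18, adjusted p = 1.77e-05). Of the malate and oxaloacetate genes 4 were higher and 4 lower. Me3 was higher in BAT by 6.04 (limma, SE 0.26, adjusted p = 8.21e-07), whereas Slc25a13, the second aspartate-glutamate carrier, was not well above background on any BAT control array and was at least 5.13-fold higher in gWAT (adjusted p = 0.00838). Such a bound sets the bright group's mean against the higher of the dim probe's signal and the array's lowest detected signal. Among the biogenesis factors 9 were higher and 1 lower in BAT. Esrrg was higher by 4.51 (limma, SE 0.39, adjusted p = 1.99e-05), and Esrrb, not well above background on any gWAT control array, was at least 13.4-fold higher (adjusted p = 4.91e-05).

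**Figure D4:**
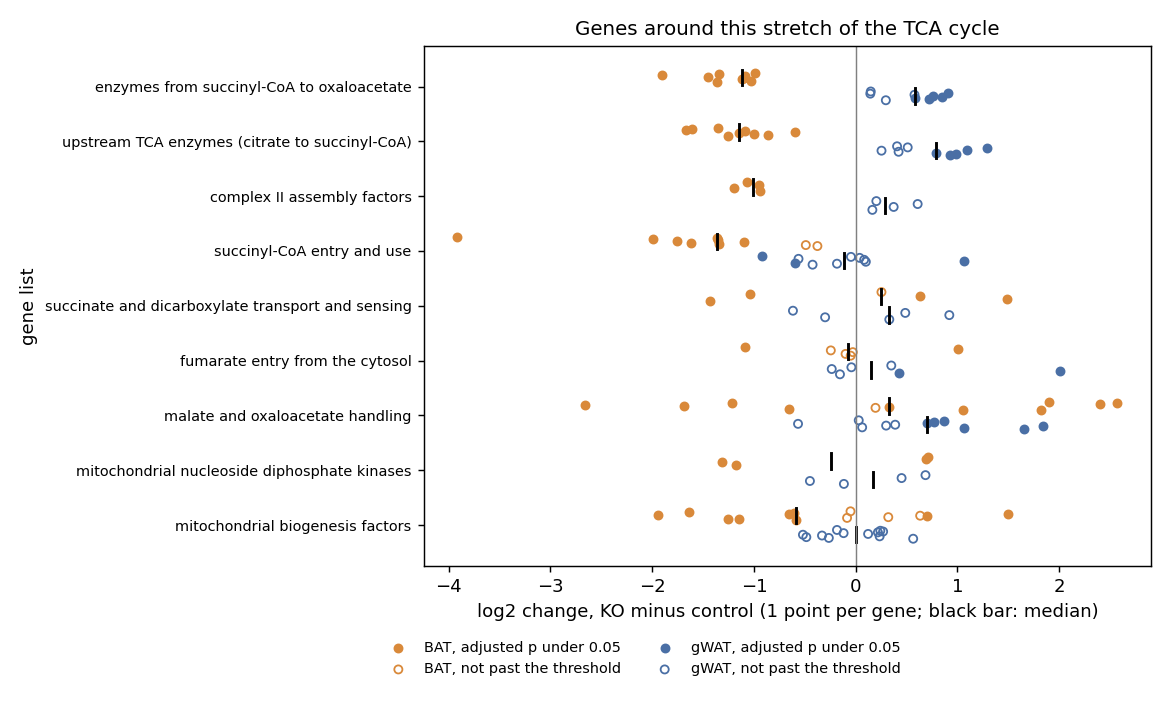
Log2 change, KO minus control (horizontal axis), of each tested gene in 9 lists (vertical axis), with 1 point per gene, BAT in orange above and gWAT in blue below, filled points for an adjusted p under 0.05 and a black bar for the list's median. The members, the enzymes before them and the assembly factors lie left of 0 in BAT and right of 0 in gWAT, while the malate and oxaloacetate genes spread from -2.66 to 2.57 in BAT.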

How the data were processed

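The authors deposited Agilent scanner files with probe intensity, extracted with Agilent Feature Extraction 10.7.1.1, and a table of normalized intensity values. Per the labels, RNA was labelled with Cy3. The deposited table matched log2 intensity over the 75th percentile of each array, with median differences of at most 0.00504. In R 4.3.3, gProcessedSignal of 56605 probes was divided by that percentile and put on the log2 scale, leaving out control spots and spots of irregular signal. Of the probes, 32994 were named through RefSeq accessions. The brightest probe stood for a gene, which was tested if every array of at least 1 group compared had it well above background. Genotypes, depots and their interaction were compared with limma 3.58.1 (Benjamini-Hochberg over all genes tested, adjusted p of 0.05). The limma step was checked on simulated arrays with independent noise, which held no slide effect or scaling shift and so cannot show what these do. Pairs of subunits were compared by exact permutation tests. The files examined hold gMedianSignal, which normexp (offset 50) used. The members and lists were chosen with earlier results of these data known. Named were the members, Pgam1, the 4 genes most like each beta subunit and, per list and comparison, up to 2 called genes in each direction; of the interaction and of some depot comparisons only counts are given, and Mdh1, Alas1, Alas2 and genotype values of Sucnr1 were named after their values were seen. Promoters are RefSeq GRCm38.p6. Alternatives were other scalings, filters, probes, blocks by slide or replicate, the methods' t-test and leaving out each array. The arrays lay on 3 slides: BAT controls 1 to 3 on slide 1, BAT control 4, all BAT KO and gWAT controls 1 to 3 on slide 2, and the rest on slide 3, scanned on another day. The number of arrays limits the precision.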

Additional observations from a re-analysis of the deposited data

Results flagged for a closer look

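In 6 of 36 groups of 4 arrays, 1 array stood apart beyond the critical value of Dixon's ratio, its gap to the nearest array over the whole range of the group. Chance gives this in about 1 of 20 independent groups. These 36 are 9 genes read on the same 16 arrays, so they are not independent and cannot be set against that rate. KO-labelled replicate 4 in gWAT stood low for Fh1 (ratio 0.983), Sdhc (0.938), Mdh2 (0.901) and Sdha (0.847). BAT KO replicate 4 stood high for Sdhd (0.918), and gWAT control replicate 1 stood low for Sdha (0.932).

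The genotype change differed between the depots for all 9 genes (limma interaction, gWAT minus BAT). The differences were 2.25 for Suclg1, 2.22 for Sdhc, 2.05 for Sucla2, 1.94 for Sdhb, 1.75 for Mdh2, 1.70 for Sdha, 1.67 for Sdhd, 1.66 for Fh1 and 1.14 for Suclg2.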

How the results depend on the processing

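All 9 enzymes passed in the interaction and between control depots under every alternative, and in BAT under all but the 2 named in the report, where 8 passed. Under spike-in and Actb and Rplp0 scaling the median of all genes moved by 0.55 and -0.59 in BAT, by -0.24 and 0.33 between depots and by -0.17 and 0.53 in the interaction. The members' BAT median was then -0.56 and -1.70, the same distance from all genes. Quantile normalization moved all genes by -0.15 between depots. In gWAT spike-ins moved all genes by 0.38 and centring on medians by 0.12. Members past the threshold in gWAT (5) and all genes (2525) became 2 and 1384 with arrays centred on their medians, 8 and 5636 with spike-in scaling, 1 and 1138 without a filter on dim probes, 0 and 184 with the slide as a fixed block, and 1 and 1618 in the methods' t-test after adjustment. With 1 fit over all 16 arrays 4040 genes passed, and 4673 in the methods' t-test at an unadjusted p under 0.05. Leaving out 1 array gave 0 to 6 members and 1143 to 3237 genes. In the interaction 3265 genes passed with the slide block, against 7162.

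The share of calls that were higher was 44.8% in BAT, 80.7% with spike-ins, 17.7% with Actb and Rplp0 and 31.4% without the filter. In gWAT it was 56%, 93.8% with spike-ins, 71% with median centring and 35.9% with the slide block. Between depots it was 54.8%, 41.5% with spike-ins and 70.9% with Actb and Rplp0, which gave 83.7% in the interaction against 56.6%. Of the neighbouring genes, Ass1 in BAT and Got1, Adss, Mcee, Mmab and Sugct in gWAT lost their call in several settings. Correlations of deviations between arrays of the same replicate number were 0.0004 to 0.22 in BAT and -0.14 to 0.43 in gWAT. Between depots they were -0.07 to 0.22 in controls and -0.19 to 0.29 in KO mice. In each comparison the best partner had the same number for some arrays and another number for others. These correlations therefore cannot decide whether the replicate numbers pair the samples. The labels used here do not say whether depots of 1 number came from 1 mouse. With the replicate block 0 members and 1087 genes passed in gWAT, and 9 members in BAT, between depots and in the interaction. Sucla2 over Suclg2 kept its direction in BAT and between depots under all alternatives. The causes were not tested.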
